A study of Mus musculus with 4 samples.

Results

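The insulin-like growth factor (IGF) system was followed through 10 of the 32285 genes of the count tables: the ligands Igf1 and Igf2, the receptors Igf1r and Igf2r, and the binding proteins Igfbp2, Igfbp3, Igfbp4, Igfbp5, Igfbp6 and Igfbp7. They were taken by symbol, from a list chosen with earlier results of these data known, and each symbol matched 1 row. They were read in 4 single-cell RNA sequencing libraries from bone of 20-week-old male C57BL/6J mice, each sampled at week 2. The fracture callus gave a control library of 6714 cells and a glucocorticoid (GC) library of 6890 cells. Trabecular bone gave a control library of 3832 cells and a GC library of 4604 cells. GC mice carried a prednisolone pellet of 6.25 mg/kg/d per the labels, whereas the methods of the study describe daily injection in the fracture model, and control mice received placebo. The labels name no genetic alteration. The number of mice behind each library is not given in the sources used here. Both tissues were flushed of marrow, crushed and digested with enzymes before droplet capture, so cells lost in these steps were not measured.

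IGF1 and IGF2 are secreted peptides that drive growth of cartilage and bone, and IGF1 is made both by liver and by cells of the skeleton itself. Both signal through the tyrosine kinase IGF1R, whereas IGF2R carries IGF2 to the lysosome for degradation. The IGF-binding proteins hold the ligands in the extracellular space, prolong their life or keep them from the receptor, and are cut by proteases that release the ligand. Glucocorticoids are known to lower growth and bone formation, and skeletal IGF1 is among the factors that have been studied in this setting.

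The ligand genes lie at chr10:87858265-87937042 (Igf1, plus strand) and chr7:142650766-142666816 (Igf2, minus strand) of GRCm38. The receptor genes lie at chr7:67952827-68233668 (Igf1r, plus strand) and chr17:12682406-12769664 (Igf2r, minus strand). Igfbp2 (chr1:72824503-72852474, plus strand) and Igfbp5 (chr1:72857932-72874884, minus strand) are neighbours that face each other across 5457 bases. Igfbp3 (chr11:7206086-7213923, minus strand) lies 3539 bases from Igfbp1, which had no UMI in the callus libraries. The remaining members are Igfbp4 (chr11:99041244-99054392, plus strand), Igfbp6 (chr15:102144362-102149511, plus strand) and Igfbp7 (chr5:77349240-77408041, minus strand). Igf2 shares exon sequence on the same strand with Gm49394, a gene that the count tables do not list. Igfbp7 shares exon sequence with Polr2b on the opposite strand.

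Upstream sequence is shown for the binding protein genes with values more than 2-fold apart between callus libraries and for Igf2. Each run comes from RefSeq (GRCm38.p6), reads 5′ to 3′ on the strand of the gene and ends at the start of its first exon. Capitals mark TGTTCT, an arm of the palindromic glucocorticoid receptor site and the complement of its other arm AGAACA, and the TATA motif TATAAA. All 10 members matched a RefSeq promoter, and the Igf1 run is left out because it overlaps an exon of an upstream Igf1 transcript.
Igf2, chr7:142666817-142667066, minus strand: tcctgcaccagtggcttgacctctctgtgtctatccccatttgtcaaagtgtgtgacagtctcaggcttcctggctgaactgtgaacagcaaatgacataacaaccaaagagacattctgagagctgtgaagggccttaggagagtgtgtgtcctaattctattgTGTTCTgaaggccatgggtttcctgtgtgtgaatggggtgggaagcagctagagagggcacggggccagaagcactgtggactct
Igfbp3, chr11:7213924-7214173, minus strand: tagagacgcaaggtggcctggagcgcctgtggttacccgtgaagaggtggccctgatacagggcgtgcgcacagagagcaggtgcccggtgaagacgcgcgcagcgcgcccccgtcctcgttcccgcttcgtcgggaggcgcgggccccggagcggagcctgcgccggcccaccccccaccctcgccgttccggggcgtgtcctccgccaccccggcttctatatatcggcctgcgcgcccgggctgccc
Igfbp4, chr11:99040994-99041243, plus strand: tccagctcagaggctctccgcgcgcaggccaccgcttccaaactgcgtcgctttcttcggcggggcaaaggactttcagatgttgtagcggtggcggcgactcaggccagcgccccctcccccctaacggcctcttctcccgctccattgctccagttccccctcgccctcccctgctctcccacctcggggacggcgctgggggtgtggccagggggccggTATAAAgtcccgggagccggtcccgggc
Igfbp5, chr1:72874885-72875115, minus strand: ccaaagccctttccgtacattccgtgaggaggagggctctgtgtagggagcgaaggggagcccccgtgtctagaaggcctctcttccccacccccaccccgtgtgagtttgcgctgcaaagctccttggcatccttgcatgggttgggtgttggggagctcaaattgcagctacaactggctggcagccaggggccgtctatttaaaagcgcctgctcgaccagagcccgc
Igfbp7, chr5:77408046-77408295, minus strand: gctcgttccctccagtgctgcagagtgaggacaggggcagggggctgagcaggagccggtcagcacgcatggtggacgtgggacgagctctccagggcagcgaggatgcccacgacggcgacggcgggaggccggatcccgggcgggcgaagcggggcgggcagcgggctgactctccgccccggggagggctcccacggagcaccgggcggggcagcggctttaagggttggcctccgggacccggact
In windows from 250 bases before to 50 bases after the start site, searched on both strands, AGAACA was found in the promoters of Igf2 (beginning at base -85) and Igfbp2 (at -206). The same letters were found in 6233 of 32851 mouse promoters (18.97%). TATAAA was found at -28 in Igfbp4 and at -148 in Igfbp6, and in 13.6% of all promoters. The full site, with the arms 3 bases apart, was found in no searched promoter of a member and in 3 promoters overall. RefSeq lists 4 promoters for Igf2 and 2 for Igfbp2, and only the promoter nearest to the gene start was searched. The shares over all promoters count every listed promoter. A match describes letters only, and glucocorticoid receptor binding was not measured.

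Levels are given as CPM, the unique molecular identifiers (UMIs) of a gene divided by all UMIs of a cell class in a library and scaled to 1000000. As each condition had a single library, no test between conditions was possible, and 95% intervals (exact Poisson for levels, exact conditional for ratios, Clopper-Pearson for shares of cells) cover counting error only and not the spread between mice. Cells were clustered without the 10 members and their pathway genes and named by marker genes. In callus, 17 classes with at least 15 cells per library were compared. They included chondrocyte-like (1372 control and 522 GC cells), hypertrophic chondrocyte-like (934 and 785), stromal-like (131 and 154), osteoblast-like (127 and 130) and endothelial-like cells (53 and 82), with 12 blood classes. Unnamed clusters held 27.0% of control and 43.7% of GC callus cells.

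Some features of the libraries bear on every value below. Median UMIs per cell were 4158 in control and 3356 in GC callus, and 6241.5 and 5599.5 in trabecular bone. Libraries shared 6 to 10 cell barcodes per pair. The GC callus table lists only barcodes of at least 500 UMIs, and empty droplets of that library were not analysed here. Over all trabecular cells, 4 of 7 glucocorticoid response genes were past 2-fold higher in the GC library (Fkbp5 16.1 to 59.7 CPM), beside 1.05% of all genes in either direction. Over all callus cells 0 of 7 were past 2-fold (Fkbp5 19.7 and 31.5 CPM), beside 0.548% of all genes. Of 64 pairs of these genes and callus classes, 4 were higher (Fkbp5 in B cell-like, NK or innate lymphoid-like and monocyte-like and Ddit4 in conventional dendritic-like cells) and 4 lower (Per1 in monocyte-like, neutrophil-like and stromal-like and Ddit4 in chondrocyte-like cells), beside 1.21% and 2.25% of all genes. Control callus empty droplets, a measure of free RNA, held 35.8 CPM (24.8 to 50.1) of Igf1, 26.4 of Igf2, 63.3 of Igf1r, 94.9 of Igf2r, 13.7 of Igfbp3, 54.8 of Igfbp4, 32.7 of Igfbp5, 17.9 of Igfbp6 and 752 of Igfbp7. B cell-like cells of that library had 0 UMIs of Igf1. Summed chondrocyte markers (12 of 12 with a UMI) fell from 4518 to 2037 CPM in B cell-like, from 3344 to 986 CPM in macrophage-like and from 3281 to 852 CPM in endothelial-like cells, none of which make cartilage. The part of this difference in the members' levels was not tested.

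The ligands were highest in stromal-like cells, the class marked by Pdgfra, Prrx1, Dcn and Lum. Igf1 stood at 466 CPM (436 to 498; 863 UMIs) in control and 579.7 CPM (545 to 616; 1063 UMIs) in GC stromal-like cells. By the mean of both libraries macrophage-like cells came next, at 127 and 230.2 CPM, and endothelial-like cells followed at 78.1 and 146 CPM. Igf1 stood at 101 and 34.0 CPM in osteoblast-like, 40.3 and 32.1 CPM in chondrocyte-like and 19.3 and 10.7 CPM in hypertrophic chondrocyte-like cells. The control levels of both chondrocyte classes were not above the interval of the empty droplets. Igf2 was mainly a gene of the skeletal classes. It stood at 95.1 and 129 CPM in stromal-like and 48.7 and 40.8 CPM in osteoblast-like cells. Levels were 23.2 and 15.02 CPM in chondrocyte-like and 7.58 and 6.602 CPM in hypertrophic chondrocyte-like cells. In control, these chondrocyte levels of Igf2 were also not above the interval of the empty droplets (17.1 to 38.9 CPM). Empty-droplet CPM gives the make-up of free RNA and not how much of it a cell held. The part of free RNA in the chondrocyte levels of either ligand was not tested. No blood class exceeded 2.16 CPM of Igf2 in control and 1.65 CPM in GC callus. Along the order of the 17 classes, intervals of neighbours were apart in both libraries at 2 of 16 steps for Igf1 and 3 of 16 for Igf2, so most lower ranks could not be told apart.

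**Figure D1:**
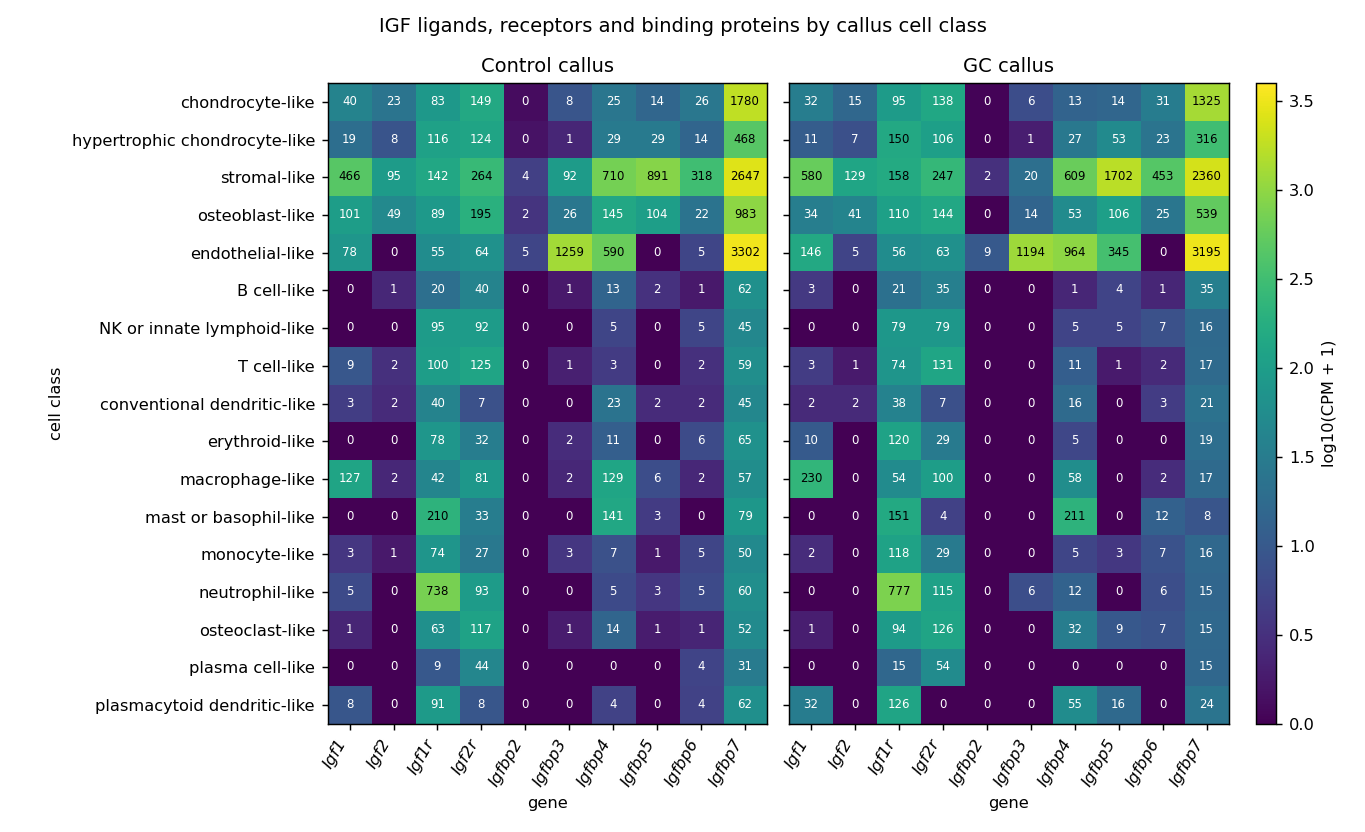
Heat map of the level of each member (columns) in each callus cell class (rows), control on the left and GC on the right. Colour gives log10(CPM + 1) and the printed numbers are CPM. Igf1, Igf2, Igfbp5 and Igfbp6 were highest in stromal-like cells, Igfbp3 and Igfbp7 in endothelial-like cells and Igf1r in neutrophil-like cells.

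The receptors were spread over more classes than the ligands. Among the named classes Igf1r, the signalling receptor, was highest in neutrophil-like cells. It stood there at 738 CPM (652 to 831) in control and 777 CPM (700 to 860) in GC callus. After each cell was thinned to 1000 UMIs, 44.1% of control and 52.6% of GC neutrophil-like cells had an Igf1r UMI, as against 1.34% and 0.860% of B cell-like cells, whose median depths were 1927 and 1681 UMIs. Unthinned shares in neutrophil-like cells were 71.3% and 76.5%. Different clusters held these cells in the libraries, with 102 of 129 control cells in cluster 12b and 123 of 179 GC cells in cluster 12a. More cells with mature neutrophil markers lay in clusters 0 (364 control and 1135 GC cells) and 1 (1204 and 71), left unnamed for few UMIs. All unnamed clusters together, some of them with chondrocyte markers, stood at 370 and 215 CPM of Igf1r and held 28.1% and 48.9% of its UMIs. In this pool summed mature neutrophil markers went from 15199 to 4072 CPM and chondrocyte markers from 56942 to 65473 CPM. The pooled Igf1r level is therefore not a neutrophil level. Outside neutrophils, Igf1r stood at 210.2 and 151 CPM in mast cell- or basophil-like, 142 and 158 CPM in stromal-like and 116 and 150.2 CPM in hypertrophic chondrocyte-like cells. Igf2r, the clearing receptor, was at 264 and 247 CPM in stromal-like, 195 and 144 CPM in osteoblast-like and 149 and 138 CPM in chondrocyte-like cells, and at 125 and 131 CPM in T cell-like cells. Of 12 classes measured for each receptor, 0 were past 2-fold in GC against control, beside 3.46% of all pairs of genes and callus classes. The log2 ratios ran from -0.46 to 0.64 for Igf1r and from -0.42 to 0.30 for Igf2r.

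Most binding proteins were highest in endothelial-like or stromal-like cells. Igfbp3, the main carrier of IGF1 in blood, was at 1259 CPM (1156 to 1369) in control and 1194 CPM (1095 to 1300) in GC endothelial-like cells. Its level in stromal-like cells was lower in both libraries, at 92.4 and 19.6 CPM. Igfbp7, a binding protein with low affinity for IGFs, was also highest in endothelial-like cells, at 3302 CPM (3133 to 3477) and 3195 CPM (3031 to 3366). Next to the endothelium, Igfbp7 stood at 2647 and 2360 CPM in stromal-like, 1780 and 1325 CPM in chondrocyte-like, 983 and 539 CPM in osteoblast-like and 468 and 316 CPM in hypertrophic chondrocyte-like cells. The control level of hypertrophic chondrocyte-like cells was below the 752 CPM (697 to 809) of the control empty droplets. The part of free RNA in that level was not tested. Pericyte-like cells, too few to be compared (12 and 13), gave 4415 and 5517 CPM of Igfbp7.

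Igfbp4, generally an inhibitor of IGF action, was shared by endothelial-like (590.5 and 964 CPM) and stromal-like cells (710.3 and 609 CPM). Igfbp5, the binding protein that attaches to bone matrix, was mainly stromal, at 891 CPM (848 to 935) in control and 1702 CPM (1642 to 1762) in GC. Igfbp6, which prefers IGF2, was at 318 and 453 CPM in stromal-like cells and at or below 31.4 CPM in each other skeletal class. Igfbp2 was nearly undetected, with 37 UMIs in all control and 16 in all GC callus cells, and its highest class level was 9.01 CPM from 4 UMIs in GC endothelial-like cells. Of these UMIs, the skeletal classes gave 94.6% in control but 37.5% (6 UMIs) in GC callus, where unnamed clusters held another 6.

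Between GC and control callus, most members stayed within 2-fold in most classes. Of 64 member-class pairs with at least 50 UMIs, 1 was past 2-fold higher and 7 were lower, with a median log2 ratio of -0.06 (5 CPM added). Over all genes the share past 2-fold in either direction was 3.46%, with 1.21% higher and 2.25% lower, and the median was -0.01. Past 2-fold is a rule of size and not of significance. The pairs were Igfbp5 in endothelial-like cells (higher), and Igf1 and Igfbp4 in osteoblast-like, Igfbp3 in stromal-like, Igfbp4 in macrophage-like and Igfbp7 in T cell-like, monocyte-like and osteoclast-like cells (lower).

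**Figure D2:**
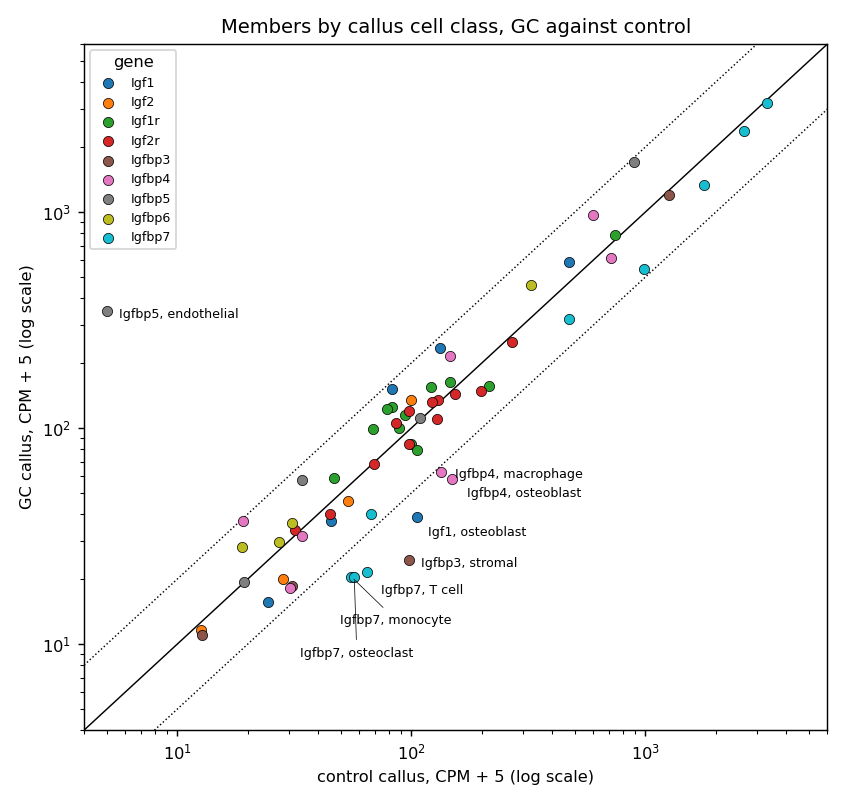
CPM + 5 of each member in each callus class with at least 50 UMIs, control on the x axis and GC on the y axis (both log scales). The solid line marks equal levels, dotted lines 2-fold differences and colours the genes. Of 64 pairs, 1 lies past the upper and 7 past the lower line.

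Igf1 in osteoblast-like cells, marked by Bglap, Dmp1 and Ifitm5, went from 101 CPM (88.9 to 115; 245 UMIs) to 34.0 CPM (26.5 to 42.9; 70 UMIs), 2.98-fold lower (2.28 to 3.94). The level was lower in each cluster of the class with Igf1 in control callus. It went from 154 to 55.3 CPM in cluster 10c and from 144 to 43.9 CPM in cluster 11c, whereas cluster 10d had 0 and 7 UMIs. Cluster 11c was led by Bglap2 and Bglap, but its highest marker score was for chondrocytes (11 markers). It held 45 of the control and 21 of the GC cells (35.4% and 16.2% of the class). Cells with Igf1 were few, as 26 of 127 control and 16 of 130 GC cells had a UMI and the 3 highest cells held 142 of the 245 and 35 of the 70 UMIs. Without those cells the levels were 43.2 and 17.3 CPM. Control cells with an Igf1 UMI had lower osteoblast markers than those without (35391 and 98571 CPM summed) and higher chondrocyte markers (39767 and 23454 CPM). In GC callus the same markers stood at 42195 and 118594 CPM and at 26649 and 18513 CPM. Over the class chondrocyte markers (12 of 12 with a UMI) fell from 27195 to 19430 CPM, and their part in the Igf1 level was not tested. The pair passed 2-fold in 10 of 15 settings, and its direction was not stable. The log2 ratio of -1.45 became 0.85 with doublets kept, 0.24 at a limit of 5% mitochondrial UMIs and 0.29 with barcodes above the UMI cutoff alone. These settings changed the cells admitted and also clustered and named them again, and the cause of the reversal was not tested.

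Igfbp4 in the same cells went from 145 CPM (351 UMIs) to 52.9 CPM (109 UMIs), 2.74-fold lower (2.21 to 3.43). In the clusters it was 401 and 85.6 CPM in 10c, 104 and 33.4 CPM in 11c and 22.3 and 34.0 CPM in 10d. The gene was found in 58 control and 37 GC cells, and the levels without the 3 highest cells were 78.6 and 32.7 CPM. The log2 ratio of -1.37 passed 2-fold in 12 of 17 settings of the processing. It was 0.31 with doublets kept, -0.25 at a limit of 5% mitochondrial UMIs, -0.30 at resolution 0.5, -0.61 above the UMI cutoff alone and -0.81 with at least 1000 genes per cell. Over the whole class, Igf1r and Igf2r in osteoblast-like cells were within 2-fold (89.2 and 109.6 CPM, and 195 and 144 CPM). So were Igf2 (48.7 and 40.8 CPM), Igfbp5 (104 and 106 CPM) and Igfbp6 (22.3 and 24.7 CPM). Within the class, Igfbp5 went from 382 to 167 CPM in cluster 10c. It went from 18.4 to 58.3 CPM in 10d and from 26.9 to 91.9 CPM in 11c. Igfbp6 went from 5.51 to 44.8 CPM in 10c and from 38.5 to 8.35 CPM in 11c. The class levels of Igfbp5 and Igfbp6 joined these opposite values.

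Igfbp3 in stromal-like cells was lower in GC by each measure taken. It went from 92.4 CPM (79.0 to 107; 171 UMIs) to 19.6 CPM (13.8 to 27.2; 36 UMIs), 4.70-fold lower (3.27 to 6.94). After thinning, an Igfbp3 UMI was seen in 8.59% (4.37 to 14.9) of control and 0.685% (0.0173 to 3.76) of GC stromal-like cells, beside 0.167% and 0% of B cell-like cells, and unthinned in 27.5% and 10.4%. Median depths of the stromal-like cells were 11603 and 10283.5 UMIs. Summed osteoblast markers of the class (10 of 13 with a UMI in each library) went from 22479 to 38318 CPM. Their part in the Igfbp3 level was not tested. Igfbp3 was lower in both stromal clusters, at 80.9 and 12.0 CPM in cluster 10a (6.74-fold, 3.76 to 12.97) and 102 and 33.0 CPM in cluster 10b (3.10-fold, 1.94 to 5.16). It passed 2-fold in 16 of 16 settings of the processing, with log2 ratios from -2.67 to -1.50.

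The stromal clusters differed in the other members. Cluster 10a, led by Cilp, Col8a1 and Prg4, held 52 control and 98 GC cells, and cluster 10b, led by Sfrp2, Ccn3 and Tnmd, held 79 and 56. In cluster 10b, Igfbp5 went from 1044 to 4328 CPM, 4.15-fold higher (3.86 to 4.45), and in cluster 10a from 711 to 199.7 CPM, 3.56-fold lower (3.06 to 4.16). The 3 highest GC stromal-like cells held 681, 553 and 416 Igfbp5 UMIs, each more than the 233 UMIs of all GC cells of 10a. They therefore lay in cluster 10b, where 56 GC cells had 2887 UMIs, so the 10b value depended on few cells. Ratios of single clusters were not recomputed under other settings. Igf1 showed the same split, at 597 and 1312 CPM in 10b (2.20-fold higher, 1.98 to 2.44) against 313 and 161 CPM in 10a (1.94-fold lower, 1.61 to 2.35). Igfbp4 stood at 912 and 1409 CPM in 10b and 475 and 151 CPM in 10a. The level of the whole class joined these opposite values and the changed mix of clusters. Igf2 (157 and 286 CPM in 10b, 22.3 and 39.4 CPM in 10a) and Igfbp6 (385 and 739 CPM, 240.3 and 289 CPM) were higher in GC in both clusters.

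**Figure D3:**
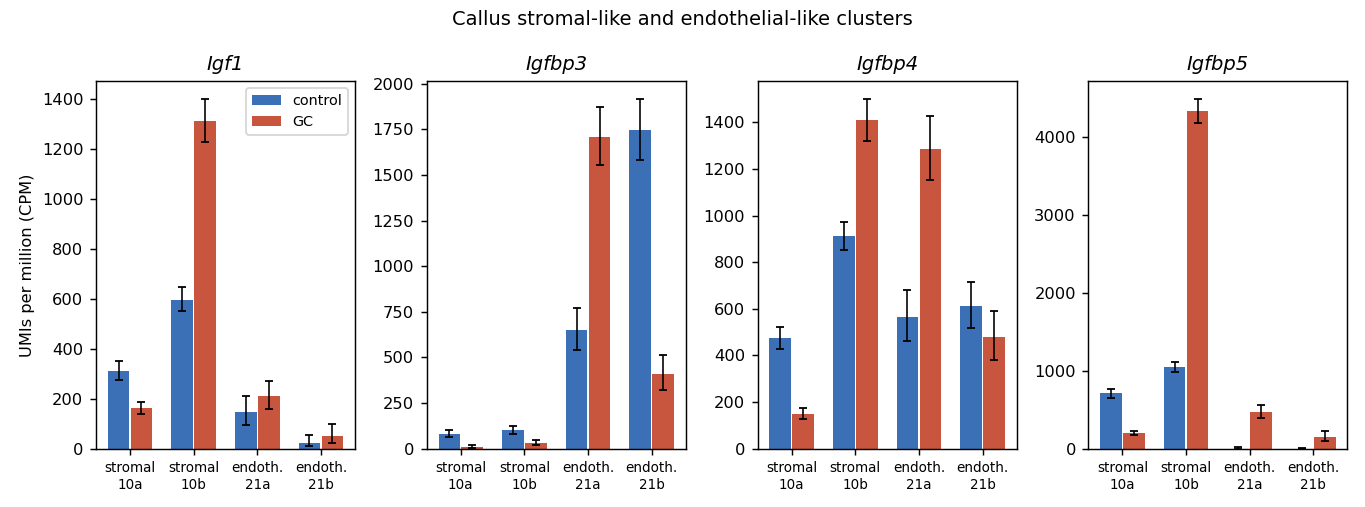
Bars give the level in CPM (linear scale from 0) of Igf1, Igfbp3, Igfbp4 and Igfbp5 in the stromal-like clusters 10a and 10b and the endothelial-like clusters 21a and 21b, control beside GC callus, with 95% Poisson intervals as error bars. Igfbp5 and Igf1 were lower in GC in cluster 10a and higher in cluster 10b, whereas Igfbp3 was lower in both stromal clusters.

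The stromal Igfbp5 total rested on few cells. The highest GC cell alone held 681 of 3120 UMIs and the 3 highest held 52.9%, as against 245 of 1649 UMIs and 26.6% in control. Without the 3 highest cells of each library the levels were 664 and 832 CPM. Fewer GC than control cells carried the transcript (65 of 154 and 74 of 131; 27.4% and 35.9% after thinning), so no order was read from the share. Igf1 was less concentrated, with 76 GC and 84 control cells positive, 27.4% and 27.3% after thinning, and 455 and 375 CPM without the 3 highest cells.

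**Figure D4:**
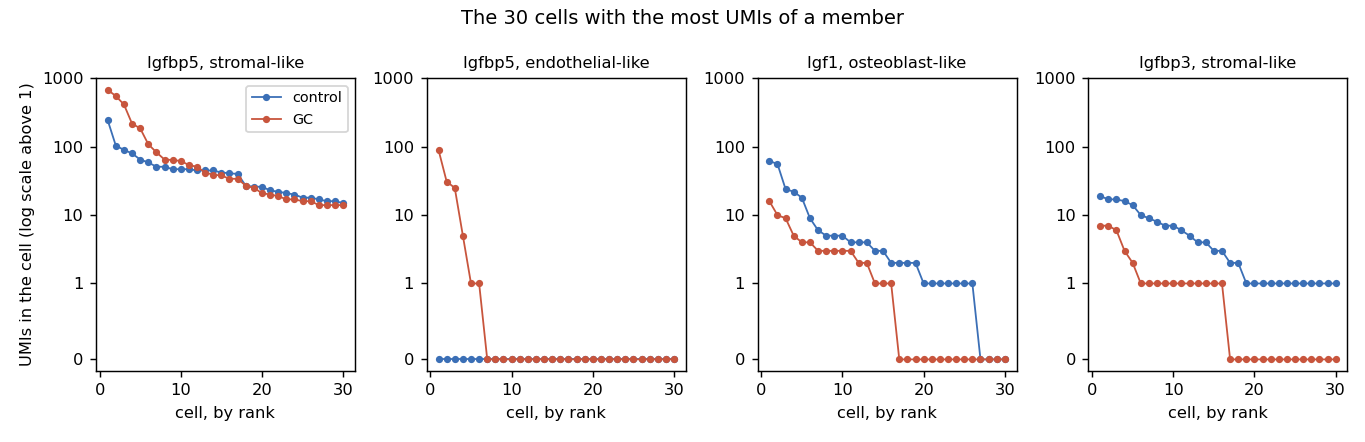
UMIs per cell (log scale above 1) in the 30 cells with the most UMIs of Igfbp5 in stromal-like and endothelial-like, Igf1 in osteoblast-like and Igfbp3 in stromal-like cells, by rank, for control and GC callus. For Igfbp5 in stromal-like cells the highest cell held 245 UMIs in control and 681 in GC callus.

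In endothelial-like cells, marked by Pecam1, Cdh5 and Kdr, Igfbp5 had 0 UMIs in 53 control cells, which allows a share of up to 5.66% of cells with a UMI at this depth (median 4422 UMIs), and 153 UMIs in 82 GC cells. Against a floor of 3 counts (6.89 CPM in the control class), its 345 CPM was at least 50.02-fold higher. The UMIs came from 6 cells, and 3 of them held 146 (95.4%), so that 17.5 CPM remained without those cells. In these 6 cells summed stromal markers were at 6770 CPM, as against 433 CPM in the other 76, and endothelial markers at 6308 against 10410 CPM. The part of stromal RNA in this value was not tested.

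Igfbp3 and Igfbp7 kept their endothelial levels over the whole class, but Igfbp3 moved in opposite directions within it. In cluster 21a (32 control and 53 GC cells) it went from 648 to 1710 CPM, 2.64-fold higher (2.16 to 3.24), and in cluster 21b (21 and 29 cells) from 1745 to 409 CPM, 4.26-fold lower (3.31 to 5.55). As 3 cells held 58.6% of control and 61.1% of GC Igfbp3 UMIs of the class, cluster values depended on single cells. After thinning, 21.6% and 20.3% of endothelial-like cells had an Igfbp3 UMI. In cells with an Igfbp3 UMI summed pericyte markers were 2785 CPM in control and 951 CPM in GC. Those without one stood at 354 and 502 CPM. Stromal markers were 1142 and 1928 CPM, as against 269 and 497 CPM. Endothelial markers were 9476 and 9787 CPM, as against 9379 and 9967 CPM. The part of pericyte and stromal RNA in the Igfbp3 level was not tested. Igfbp4 was 590.5 and 964 CPM in the class, with 33.3% and 36.5% of thinned cells positive. It was 565 and 1284 CPM in cluster 21a, 2.27-fold higher (1.83 to 2.84), and 610.4 and 477 CPM in cluster 21b (0.782-fold, 0.591 to 1.03).

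Macrophage-like cells, marked by C1qa, Mrc1 and Ms4a7, had Igf1 at 127 and 230.2 CPM, from 25 of 88 and 37 of 94 cells. In cluster 18a, which holds 36 and 48 of these cells, it was 313 and 371 CPM (1.18-fold, 0.878 to 1.60). Summed osteoblast markers of the class went from 598 CPM (10 of 13 with a UMI) to 1548 CPM (8 of 13). In GC macrophage-like cells with an Igf1 UMI they stood at 3186 CPM, as against 512 CPM in those without and 614 CPM in control cells with one, and their part in the Igf1 level was not tested. Summed macrophage markers were also higher in cells with an Igf1 UMI. They stood at 6842 CPM in control and 5921 CPM in GC, as against 3325 and 3586 CPM in those without. Igfbp4 was lower, from 129 CPM (83 UMIs) to 57.6 CPM (31 UMIs), 2.24-fold lower (1.47 to 3.50). It was found in 19 control and 21 GC cells. The log2 ratio of -1.10 passed 2-fold in 11 of 16 settings, and was -0.71 as a mean of each cell's CPM, -0.83 with doublets kept, -0.86 at a limit of 5% mitochondrial UMIs, -0.94 with a pseudocount of 20 CPM and -0.96 without the highest cell of each library.

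Igfbp7 was lower in GC callus in every one of the 12 blood classes, from 31.0 to 78.8 CPM (median 58.4) in control and from 7.95 to 35.2 CPM (median 16.2) in GC. Pooled over them it fell from 54.4 to 17.7 CPM, 3.08-fold lower (2.58 to 3.69). The classes past 2-fold were T cell-like (55 and 20 UMIs; 3.596-fold, 2.12 to 6.33), monocyte-like (132 and 33 UMIs; 3.24-fold, 2.20 to 4.91) and osteoclast-like cells (115 and 31 UMIs; 3.39-fold, 2.26 to 5.22). All of these levels were below the 752 CPM of Igfbp7 in control empty droplets. Summed chondrocyte markers moved the same way, from 4180 to 1329 CPM in T cell-like, 3558 to 1226 CPM in monocyte-like and 3239 to 738 CPM in osteoclast-like cells. The part of free RNA in these values was not tested. Over all genes the median log2 ratio in T cell-like cells was -0.18, beside -1.58 for Igfbp7. T cell-like cells lay mostly in different clusters of the libraries (9b in control and 9a in GC).

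In chondrocyte-like cells, the builders of the callus cartilage, Igfbp7 went from 1780 to 1325 CPM and in hypertrophic chondrocyte-like cells from 468 to 316 CPM, both within 2-fold. The shares of thinned chondrocyte-like cells with an Igfbp7 UMI were 74.7% and 55.3%, and 99.6% and 86.6% unthinned. Median depths of the class were 27407 and 22420.5 UMIs, so unthinned shares are not matched for depth. Clusters 11d and 2f, with medians of 1523.5 and 1618 UMIs, held 61 and 52 GC cells but 3 and 1 control cells. Igfbp7 stood at 289 CPM in GC cells of cluster 11d. The part of these shallow cells in the shares was not tested. Igf1 (40.3 and 32.1 CPM), Igf1r (83.2 and 95.1 CPM), Igf2r (149 and 138 CPM), Igfbp5 (14.3 and 14.4 CPM) and Igfbp6 (26.0 and 31.4 CPM) were within 2-fold in chondrocyte-like cells. In hypertrophic chondrocyte-like cells Igfbp5 was 29.0 and 52.6 CPM. The clusters that made up these classes differed between libraries (chondrocyte-like cells were most numerous in cluster 2b in control, with 271 of 1372 cells, and in cluster 2a in GC, with 177 of 522), so a change of level and a change of cell state cannot be told apart.

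Over all cells of the callus, 1 of 10 members was past 2-fold in GC against control, where the share over all genes was 0.548% (0.244% higher and 0.304% lower). Igfbp5 went from 43.0 to 99.2 CPM, 2.31-fold higher (2.21 to 2.41), but its log2 ratio of 1.12 was 0.67 as a mean of each cell's CPM and 0.51 in thinned cells. Igfbp7 went from 1183 to 685 CPM, and the remaining members were Igf1 at 42.4 and 42.1, Igf2 at 17.6 and 12.9, Igf1r at 119.5 and 156, Igf2r at 141 and 131, Igfbp3 at 14.7 and 16.9, Igfbp4 at 48.5 and 56.0 and Igfbp6 at 29.0 and 42.5 CPM. These values hold cell make-up and level together. Named skeletal classes gave 86.4% of the members' UMIs in control and 57.7% in GC callus. Igfbp7 had the most UMIs in these sums (94581 in control and 38744 in GC over all cells). By member the skeletal share ran from 48.0% (Igfbp3) to 94.8% (Igf2) in control. In GC callus it ran from 14.9% (Igfbp3) to 77.5% (Igf2). The skeletal classes held 76.8% and 47.6% of all UMIs, and unnamed clusters held 9.07% and 35.4%. Summed chondrocyte markers (12 of 12 with a UMI) stood at 56942 and 65473 CPM in the unnamed clusters. Among these, clusters 3a (73 control and 325 GC cells) and 6a (1 and 373) scored highest for chondrocyte markers but were not named. Their part in the skeletal shares and levels was not tested. Within the named skeletal classes together, Igfbp5 went from 48.6 to 153 CPM (3.15-fold higher, 3.01 to 3.31). Of its 4121 GC UMIs there, 3 stromal-like cells alone held 681, 553 and 416. Igfbp6 went from 31.1 to 55.9 CPM (1.80-fold, 1.68 to 1.93) and Igfbp7 from 1388 to 892 CPM (1.56-fold lower, 1.53 to 1.58). Stromal-like cells, the class with the most Igfbp5, gave 3.01% of the UMIs of these classes in control and 6.82% in GC, and without them Igfbp5 was 22.4 and 39.9 CPM (1.78-fold, 1.64 to 1.94) and Igfbp6 22.2 and 26.9 CPM. In unnamed clusters Igfbp5 was 40.5 and 60.1 CPM (1.48-fold, 1.30 to 1.69), whereas Igfbp6 was lower, at 51.2 and 42.7 CPM (0.835-fold, 0.739 to 0.946).

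Trabecular bone held few skeletal cells, and no skeletal class could be named there. Its Igf1, Igf2, Igfbp5 and Igfbp7 came mostly from clusters 22a and 22b, with 17 control and 44 GC cells and leading genes Col1a2, Dcn and Col3a1, which carry markers of several lineages. These clusters held 97.6% of Igfbp5 UMIs in control and 98.8% in GC, 88.9% and 91.4% of Igf1, 65.6% and 75.8% of Igfbp7 and 48.6% and 70.6% of Igfbp6. In them Igfbp5 went from 8946 to 1473 CPM, 6.07-fold lower (5.42 to 6.82), and Igf1 from 704 to 189 CPM (3.71-fold lower, 2.61 to 5.32). Igf2 went from 31.98 CPM (4 UMIs) to 383 CPM (107 UMIs), while Igfbp6 was 2966 and 2667 CPM and Igfbp7 672 and 751 CPM. Markers moved as well, since summed stromal markers went from 25921 to 14857 CPM in 22a and from 26653 to 16165 CPM in 22b, pericyte markers from 117 CPM (3 of 9 with a UMI) to 3207 CPM (9 of 9) in 22a and mature neutrophil markers from 2334 CPM (3 of 9) to 67478 CPM (8 of 9) in 22b. Their part in the members' levels was not tested. A single control cell held 555 of the 1146 Igfbp5 UMIs in the library, and without the highest cell of each library the level over all cells was 17.5 and 9.10 CPM.

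**Figure D5:**
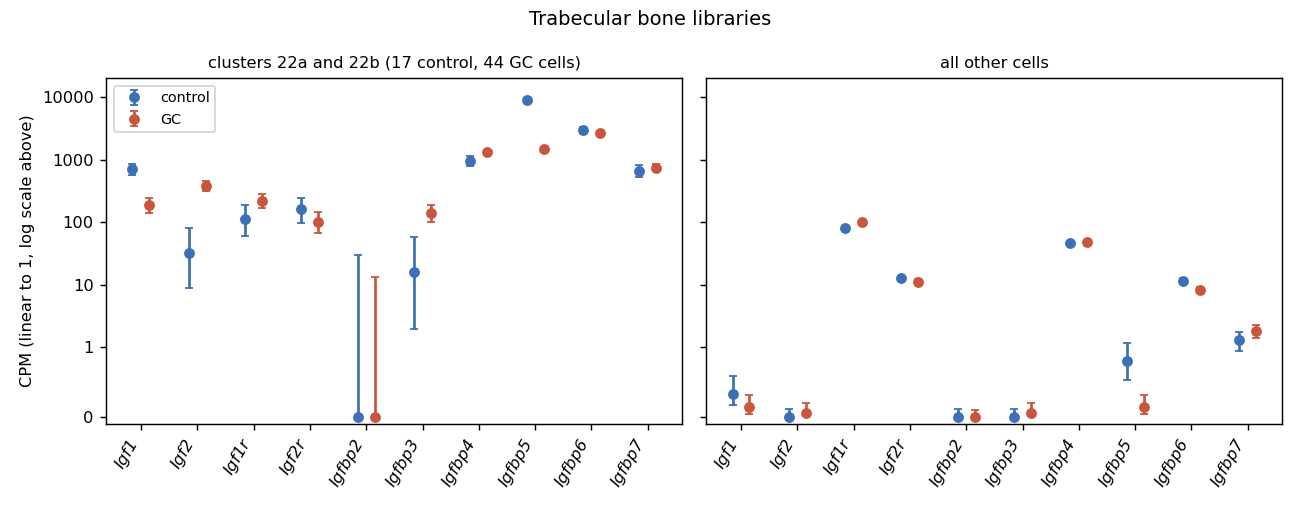
Level of each member in trabecular bone, control beside GC, in CPM (linear to 1, log scale above) with 95% Poisson intervals, in clusters 22a and 22b (left) and in all other cells (right). Igfbp5 stood at 8946 CPM in control and 1473 CPM in GC cells of clusters 22a and 22b.

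Over all trabecular cells, 1 of 8 measured members was past 2-fold, beside 1.05% of all genes (0.469% higher and 0.576% lower). This was Igfbp5, which went from 33.9 to 11.2 CPM, 3.04-fold lower (2.71 to 3.41). Igf2 (4 and 109 UMIs) and Igfbp3 (2 and 41 UMIs; 18.5-fold, 4.82 to 158) rested on few UMIs, and Igfbp2 had 0 in both libraries. Of 19 member-class pairs, 1 was higher and 1 lower, beside 1.54% of all genes higher and 5.18% lower (6.72% in either direction). Igfbp4 in T cell-like cells had 1 UMI in control and 86 in GC (3.28 and 67.3 CPM; 20.5-fold, 3.58 to 819), from 28 of 165 GC cells, and GC cells of cluster 15c stood at 289 CPM, with 3 control and 41 GC cells. The lower pair, Igfbp4 in B cell-like cells (62 and 0 UMIs), was not detectable at this depth, because 3 counts in the 16 GC cells would give 60.2 CPM, above the 32.8 CPM of control. Among the named trabecular classes Igfbp4 was highest in blood progenitors, at 249 and 221 CPM in hematopoietic progenitor-like and 221 and 208 CPM in granulocyte-monocyte progenitor-like cells. The latter held 871 of the 1671 control UMIs. Megakaryocyte-like cells followed at 173 and 177 CPM, and the intervals of these 3 classes overlapped. Igf1r was at 342 and 189 CPM in mast cell- or basophil-like, 232 and 188 CPM in megakaryocyte-like and 115 and 161 CPM in neutrophil-like cells.

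Set against control trabecular bone, control callus was past 2-fold higher for 5 of 9 members, where 17.4% of all genes were higher and 9.43% lower (26.8% in either direction). Igfbp7 was 3.79 CPM in trabecular bone and 1183 CPM in callus (312-fold, 263 to 374), Igf2r 13.2 and 141 CPM (10.7-fold, 9.70 to 11.7) and Igf1 2.93 and 42.4 CPM (14.5-fold, 11.9 to 17.9). Igf2 (4 and 1410 UMIs) and Igfbp3 (2 and 1174 UMIs) made up the rest. Igfbp4 (49.4 and 48.5 CPM), Igfbp5 (33.9 and 43.0 CPM), Igfbp6 (22.6 and 29.0 CPM) and Igf1r (79.6 and 119.5 CPM) were within 2-fold. The tissues differed in which cells they held, and the comparison is of whole libraries.

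Around the members, 32 genes of the pathway were followed. Of 212 pairs of these genes and callus classes, 0 were past 2-fold higher and 5 lower (2.36%), beside the 3.46% of all genes given above. H19, the imprinted RNA 72622 bases from Igf2, went from 169 to 13.1 CPM in osteoblast-like (12.9-fold lower, 8.73 to 19.8) and from 475 to 210.0 CPM in stromal-like cells (2.26-fold lower, 2.01 to 2.56), while Igf2 in those classes stayed within 2-fold. The other lower pairs were Nedd4, a ubiquitin ligase, in T cell-like and osteoclast-like cells and Ptpn1, a phosphatase, in plasmacytoid dendritic-like cells. Ratios of single pathway genes, H19 among them, were not recomputed under other settings. In osteoblast-like cells the ratios of Igf1 and Igfbp4 changed direction under some settings. Cluster 11c also fell from 35.4% to 16.2% of that class, and its part in the H19 level was not tested. Over all callus cells 0 of 29 were past 2-fold, and Pappa, the protease that cuts IGFBP4, was 14.3 and 27.5 CPM. In trabecular bone 1 of 88 pairs was higher and 6 lower, all in B cell-like cells (318 and 16 cells), in which 43.1% of all genes were past 2-fold.

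The profile of each member over the classes was set beside 7796 genes by Pearson's r of log2 levels. The 34 profiles are 17 classes in 2 callus libraries and share library and depth, so r is a description. Igf1 was most like Rnase4 (0.92), Gas6 (0.89) and Pros1 (0.86), Igf2 like Thbs4 (0.98), Dact1 and Wnt5a (0.97 each) and Igf1r like Cep19 (0.77). Igf2r was most like Esyt2 (0.76). Igfbp3 was most like Ldb2 (0.98), Igfbp4 like Cntln (0.86), Igfbp5 like Ogn (0.94), Igfbp6 like Sod3 (0.95) and Igfbp7 like Hspg2 (0.98). Among members, Igf2 and Igfbp6 had r of 0.88, Igf2 and Igfbp5 0.87, whereas Igf1 and Igf1r had 0.08.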

How the data were processed

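Droplet-based single-cell RNA sequencing was done on fracture callus and trabecular bone of control and GC mice, with 1 library per group (week 2). UMI counts per gene and barcode were used as deposited by the authors, and per the labels they were aligned to mm10 with Cell Ranger 5.0.1, while file headers name an earlier release. Seurat 3.2.0 is also named in the submitters' processing notes. Totals were 95852254 and 64388215 UMIs in control and GC callus and 41239842 and 45876714 in trabecular bone.

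Cells were barcodes above a UMI cutoff, or of at least 500 UMIs with a profile unlike the empty droplets (multinomial simulation). All barcodes listed for GC callus were taken. Cells with under 200 genes or over 10% mitochondrial UMIs were then removed, and the cells most like simulated doublets were taken out at 0.8% per 1000 cells. Leiden clusters (2000 variable genes, 30 components, resolution 1) left out 49 genes, including the members, and were named from 192 markers of 22 classes. The naming rule was set after the clusters were seen, and members and gene lists were chosen with earlier results of these data known. The pairs compared had at least 50 UMIs, and a value past 2-fold on log2(CPM + 5) was counted. Named genes were all members, the pathway list and, for each member, the 3 genes nearest to its profile. The statistics were tested on simulated data. Python 3.11.15, scipy 1.17.1, scikit-learn 1.9.0 and leidenalg 0.10.2 were used. No test between groups was made, as each had 1 library. Alternatives to the filters, clustering, pseudocount and minimum are given in the closing section, and settings that leave out clusters or single cells were added after seeing the data.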

Additional observations from a re-analysis of the deposited data

How the results depend on the processing

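Of 93 member-class or whole-library values within 2-fold, 1301 of 1394 recomputed values kept their direction and 44 passed 2-fold. Of 17 past 2-fold, 235 of 239 kept their direction and 214 stayed past 2-fold. The reversed values were log2 ratios of Igf1 in osteoblast-like cells of 0.24 (at most 5% mitochondrial UMIs), 0.85 (doublets kept) and 0.29 (only barcodes above the UMI cutoff), and of Igfbp4 in osteoblast-like cells of 0.31 (doublets kept). The cause was not tested.

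With the share of all genes past 2-fold under the same setting in parentheses, callus gave 14 of 81 pairs with a minimum of 20 UMIs (5.27%), 4 of 27 with thinned cells (5.04%), 4 of 54 with only pairs at least 2-fold above B cells (4.07%), 13 of 62 with at least 1000 genes (3.07%), 18 of 68 above the UMI cutoff (3.53%) and 13 of 71 at resolution 2 (4.31%). Trabecular bone gave 0 of 13 pairs with a minimum of 100 UMIs (5.58%), 0 of 4 with thinned cells (6.35%), 0 of 6 with only pairs at least 2-fold above B cells (4.31%), 1 of 14 with the control mix of clusters (1.70%), 1 of 17 at most 5% mitochondrial UMIs (2.95%) and 1 of 19 with at least 1000 genes (2.55%). Over all callus cells, 0 of 10 members passed with a pseudocount of 20 CPM (0.231%), 0 of 10 as a mean of each cell's CPM (0.780%) and 0 of 9 with thinned cells (1.13%). Over all trabecular cells it was 2 of 8 with a pseudocount of 1 CPM (2.78%), 0 of 8 with 20 CPM (0.321%) and 0 of 8 as a mean of each cell's CPM (2.08%). It was 0 of 6 with thinned cells (3.24%) and 0 of 5 with unnamed clusters left out (1.13%). With the highest cell left out it was 0 of 8, and the share over all genes was not computed for that setting. Callus against trabecular bone gave 3 of 9 at 20 CPM (13.9%).

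The share of member UMIs from osteolineage cells of control and GC callus was 92.3% and 80.4% at most 5% mitochondrial UMIs, 92.9% and 78.7% at 1000 genes, 86.2% and 69.2% with doublets kept, 56.6% and 52.8% above the UMI cutoff, 89.0% and 65.6% at resolution 0.5 and 84.4% and 67.7% at resolution 2. Igfbp7 had the most UMIs in this sum in the main processing, and shares of single members differed from it. Unnamed clusters, some with chondrocyte markers in the main processing, were not counted as osteolineage. No paired analysis was possible because each group had 1 library and carried no replicate number. Depth limits Igfbp2, trabecular Igf2 and Igfbp3, and B cell-like trabecular values.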
